A study of Mus musculus with 9 samples.

Results

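The genes described here are the SoxB and SoxC members of the Sox family of transcription factors (TFs). They were taken by exact symbol and comprised 8 of the 38197 symbols in the expression tables: the SoxB1 genes Sox1, Sox2 and Sox3, the SoxB2 genes Sox14 and Sox21, and the SoxC genes Sox4, Sox11 and Sox12. RNA was sequenced from mouse embryonic stem cells (ESCs) of strain 129, wild type in every group, that were grown as a monolayer and turned into ventral hindbrain neural stem cells (NSCs) with retinoic acid and the Smoothened agonist SAG early in the protocol. Cells that carried Prominin-1, found on the surface of neural progenitors, were isolated with magnetic beads at 4.5, 5.5 and 6.5 days in differentiation conditions (DDC). Each time point had 3 replicates, which gave 9 libraries. One label field gives whole days (4, 5 and 6) for the same samples. All groups shared the line, the agents and the sort, and an untreated or unsorted group was not analysed here. The labels do not say whether replicates came from separate cultures, so the p-values measure the spread between these samples, which may be technical. Replicates differed beyond counting noise, with a chi-square per degree of freedom of 25.3 to 66.2 in 8 of 9 pairs and of 2.51 between replicates 2 and 3 of 5.5DDC, and all were kept as separate samples. In bulk RNA of this kind, fewer cells of a type and less RNA per cell cannot be told apart.

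All Sox proteins bind DNA through an HMG box. SoxB1 factors keep neural cells in the progenitor state, and SoxB2 factors bind the same sites and mostly repress, with Sox21 acting against SoxB1 in the neural tube. SoxC factors are switched on as progenitors leave the cycle and act on genes of young neurons. Over the time sampled, ventral hindbrain NSCs pass from making motor neurons to making serotonergic neurons, and the comparisons ask whether the Sox genes changed with that passage.

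SoxB1 genes are alike in sequence, so the part of the coding sequence that is most alike was examined first, since reads of one gene could be counted for another. The sequences below are the same 237-base coding stretch, 79 codons of the HMG box, of Sox3, of the other SoxB1 genes and of Sox4, a SoxC gene, on the strand of each gene, 5′ to 3′, from GRCm38. They are shown because Sox3 was the member whose level fell while Sox1 and Sox2 did not pass the test. Capitals mark the bases that differ from Sox3.
Sox3, chrX:60892768-60893004, minus strand: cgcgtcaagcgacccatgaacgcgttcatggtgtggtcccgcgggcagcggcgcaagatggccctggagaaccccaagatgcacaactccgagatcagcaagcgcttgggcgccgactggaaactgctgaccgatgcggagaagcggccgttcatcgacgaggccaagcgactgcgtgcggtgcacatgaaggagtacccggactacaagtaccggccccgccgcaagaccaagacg
Sox1, chr8:12396508-12396744, plus strand: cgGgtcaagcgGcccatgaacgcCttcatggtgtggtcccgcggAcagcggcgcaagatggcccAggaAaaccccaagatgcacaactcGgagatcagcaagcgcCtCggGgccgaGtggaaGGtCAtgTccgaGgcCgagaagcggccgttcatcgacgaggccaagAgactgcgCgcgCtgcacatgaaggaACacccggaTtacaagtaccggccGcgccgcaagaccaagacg
Sox2, chr3:34650539-34650775, plus strand: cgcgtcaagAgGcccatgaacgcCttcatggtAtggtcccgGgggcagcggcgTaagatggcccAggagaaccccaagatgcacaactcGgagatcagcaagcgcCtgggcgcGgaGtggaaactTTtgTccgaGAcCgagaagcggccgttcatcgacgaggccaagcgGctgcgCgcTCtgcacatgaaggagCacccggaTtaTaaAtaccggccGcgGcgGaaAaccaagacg
Sox4, chr13:28952614-28952850, minus strand: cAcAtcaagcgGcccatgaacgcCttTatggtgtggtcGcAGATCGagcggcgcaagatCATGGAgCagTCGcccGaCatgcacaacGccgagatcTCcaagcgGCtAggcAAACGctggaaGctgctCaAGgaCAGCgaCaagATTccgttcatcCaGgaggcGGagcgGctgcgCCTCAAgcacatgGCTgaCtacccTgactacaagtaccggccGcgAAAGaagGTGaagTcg

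Within this stretch Sox1 differed from Sox3 at 25 bases (89.5% identity) and Sox2 differed from Sox3 at 29 bases (87.8% identity). Sox4 differed from Sox3 at 72 bases (69.6% identity). The longest identical run was 30 bases between Sox3 and Sox1 and 32 bases between Sox3 and Sox2, both shorter than the 50-base reads. Longer runs occurred in other pairs, with 38 bases between Sox1 and Sox2. The longest of any pair of members was 48 bases, between Sox4 and Sox11, close to the read length. Over the whole annotated transcripts, no 50-base word of any of the 8 genes occurred in another of them. Reads that span the box can therefore be assigned to one member by sequence.

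The 8 genes lie on 8 chromosomes of GRCm38, and each is protein coding in the GENCODE M21 annotation. Sox3 lies at chrX:60891366-60893430, Sox1 at chr8:12395295-12400126, Sox2 at chr3:34650405-34652461, Sox14 at chr9:99874106-99876170, Sox21 at chr14:118233232-118237030, Sox4 at chr13:28948919-28953713, Sox11 at chr12:27334264-27342574 and Sox12 at chr2:152393611-152398063. In 6 of the 8 genes the only transcript had 1 exon, whereas 6.06% of protein-coding genes had 1 exon in every transcript. Sox14 and Sox12 each had a further transcript with 2 exons. Sox2 lies within an intron of the non-coding gene Sox2ot, on the same strand, with no exonic base shared. Antisense genes overlap 2 members: Gm26735 covers 54.6% of the exonic bases of Sox4, and Gm4675 covers 18.8% of those of Sox21. Whether the counting used strand is not given in the sources used here, so reads from the overlapping parts of Sox4 and Sox21 are uncertain. Gm4675 held 796 counts over the 9 libraries, against at least 1210 counts of Sox21 in each library. Gm26735 has no entry among the deposited counts, so its part in the Sox4 reads cannot be gauged.

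Promoter sequences of RefSeq (GRCm38.p6, 250 bases before to 50 after the start) were matched for 7 members and not for Sox3. The octamer ATGCAAAT, the motif of POU partner factors, was searched on both strands and occurred in the promoters of Sox1 and Sox12, and in 1.74% of all 32851 promoters. The letters ACAAAG, a Sox motif, occurred in the Sox2 promoter and in 18.7% of all promoters. These matches are descriptions of the window and carry no measurement of binding.

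Levels are given as FPKM, read counts divided by transcript length and library size, which is the scale on which genes of different length can be compared. Sox2, which maintains progenitors from the early embryo onward, was the most abundant of the 8 genes at every time point by its mean, with 82.1 ± 5.18 (SD, n = 3) FPKM at 4.5DDC, 85.3 ± 3.53 at 5.5DDC and 87.6 ± 7.37 at 6.5DDC. Sox4 followed, with 53.4 ± 6.19, 52.0 ± 9.84 and 69.8 ± 20.1 FPKM. Sox2 and Sox4 did not overlap between libraries at 4.5 and 5.5DDC, and at 6.5DDC one Sox4 library lay above the lowest Sox2 library. Sox21 came next at each time point and overlapped neither neighbour. Sox12, Sox11 and Sox1 lay between 11.4 and 21.9 FPKM in their means at each time point, and these neighbours overlapped with the exception of Sox12 against Sox11 at 5.5DDC. In the deposited FPKM, Sox3 was the lowest of the detected members at each time point, and its libraries overlapped those of Sox1 only at 4.5DDC. The place of the members depends on the gene models. Counts scaled to library size (CPM) divided by FPKM give a length in kb only if the tools behind both used the same library totals. For Sox11 the quotient was 2.60, and its ratio to the annotated 8.31 kb was 0.313. The other 6 detected members gave ratios of 1.02 to 1.46. The median of this ratio over 9582 expressed genes was 0.580, so that Sox11 lay below it and the others above it. Dividing the mean CPM by the annotated length instead would put Sox11 below Sox3 at 4.5 and 5.5DDC, though not at 6.5DDC.

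**Figure D1:**
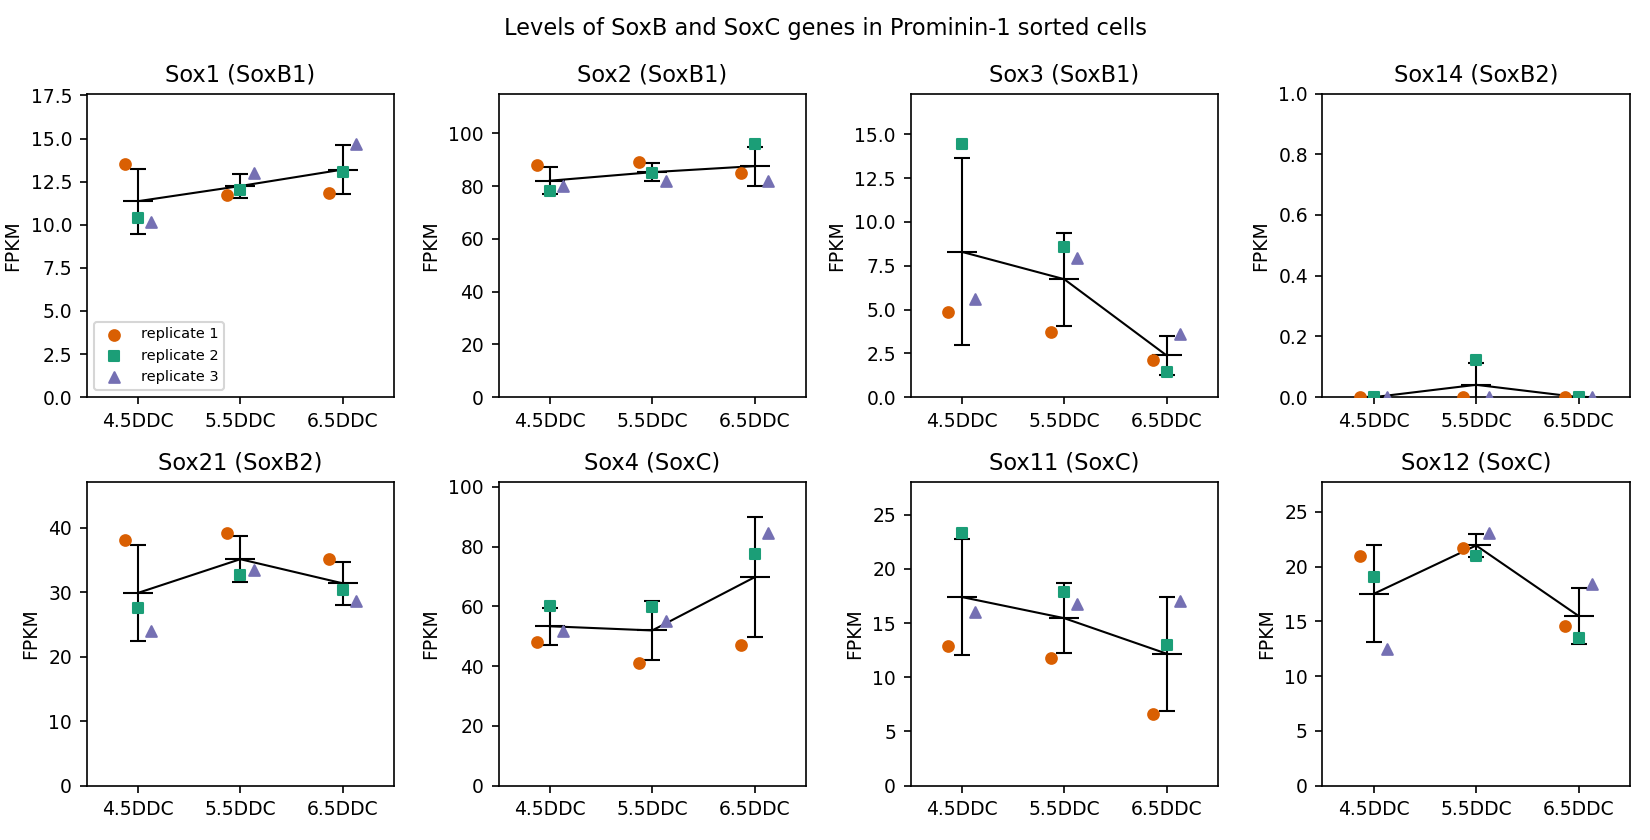
Level of each gene in FPKM (vertical axes, different ranges) at 4.5, 5.5 and 6.5DDC. Symbols are the 3 replicates, and horizontal bars joined by lines are means with error bars of 1 SD. Sox3 falls to between 1.44 and 3.59 FPKM at 6.5DDC, Sox2 stays between 78.2 and 96.0 FPKM, and Sox14 has 1 library above 0.

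Sox3 is the SoxB1 gene known as an early and broad marker of neural progenitors. It measured 4.83, 14.4 and 5.61 FPKM in replicates 1, 2 and 3 of 4.5DDC, then 3.70, 8.58 and 7.92 at 5.5DDC and 2.11, 1.44 and 3.59 at 6.5DDC. The counts behind these values were 214, 402 and 205 reads, then 233, 244 and 217 reads, then 67, 60 and 141 reads. Every 6.5DDC library lay below every library of the earlier time points, and replicate 2 at 4.5DDC stood well above the others. The mean fell from 8.29 ± 5.34 at the first time point to 2.38 ± 1.10 FPKM at the last (SD, n = 3).

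In the edgeR quasi-likelihood fit of all 9 libraries, the change of Sox3 from 4.5 to 6.5DDC was −1.80 (SE 0.49) on the log2 scale, a level 3.49-fold lower (95% interval of the ratio 0.133 to 0.617), with a Benjamini-Hochberg adjusted p of 0.0330. Sox3 was the only 1 of the 7 tested members called at an adjusted p under 0.05, in a comparison in which 18.7% of the 14742 genes tested were called. The libraries of the 2 time points did not overlap in FPKM, as in 34.5% of the genes tested, and the exact two-sided permutation test gave p = 0.1, the smallest that 3 against 3 samples allow. Sox3 was lower at 6.5DDC in 3 of 3 replicates, with differences of −0.99, −2.96 and −0.74 on the log2 scale within replicates 1, 2 and 3, so that replicate 2 differed most and replicate 3 least. The call rested on single libraries. Without replicate 2 of 4.5DDC, the log2 fold change was −1.19 with an adjusted p of 0.125. The adjusted p was 0.118 when replicate 2 of 6.5DDC was left out and 0.0666 when replicate 1 of 6.5DDC was. Under limma voom without normalization, the transformation behind the deposited log2 values, the adjusted p was 0.0673 over the same genes.

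**Figure D2:**
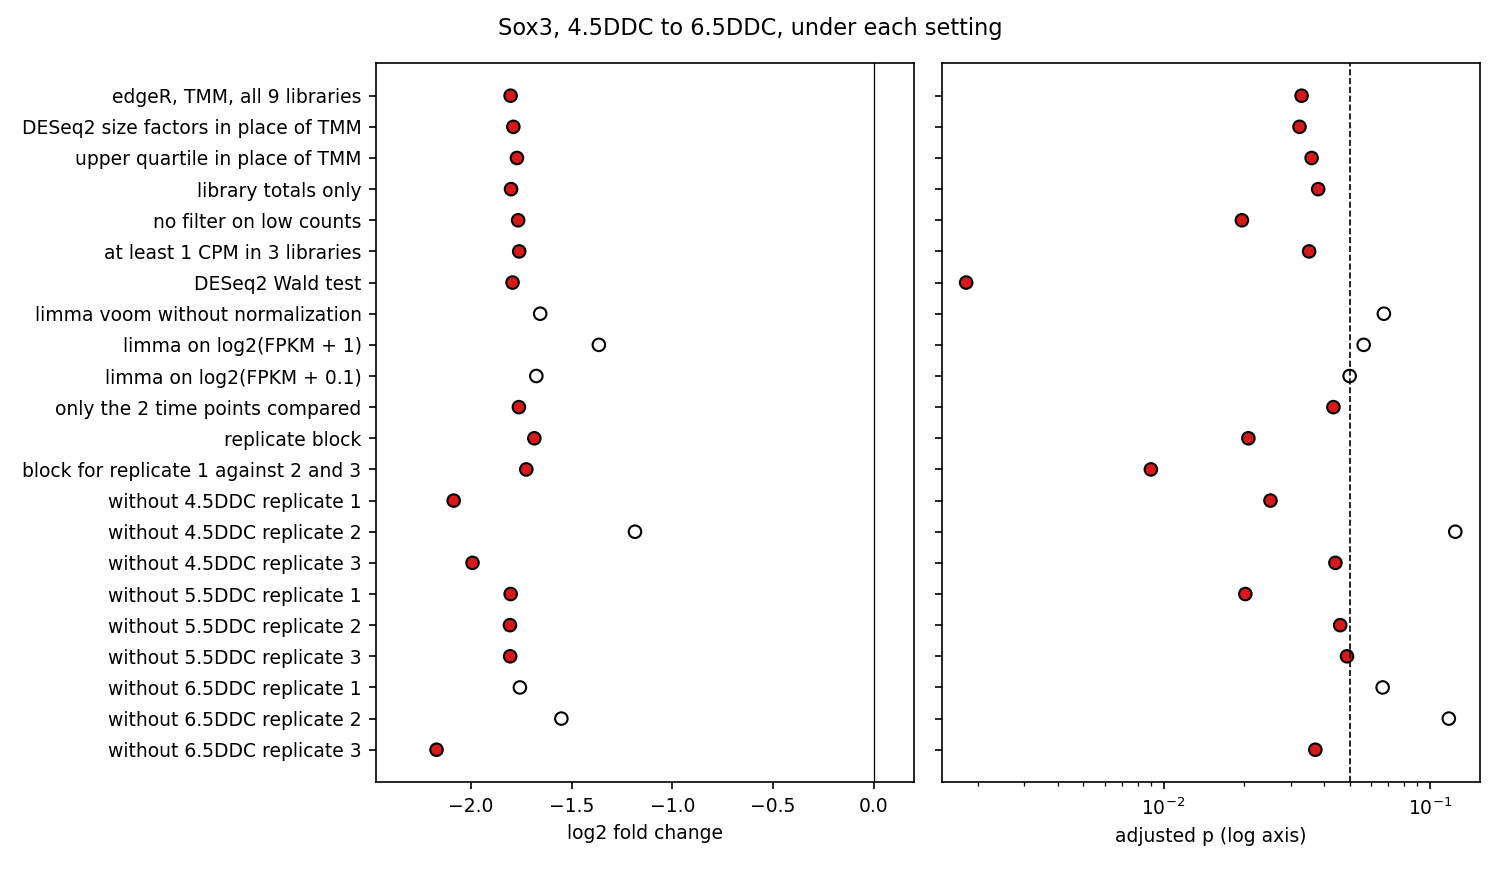
Change of Sox3 from 4.5 to 6.5DDC under each processing choice, as log2 fold change (left panel) and adjusted p on a log axis (right panel), with a dashed line at 0.05. Filled points are called, as in 15 of 21 alternatives, and the log2 fold change lies between −2.17 and −1.19 in all of them.

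The intervals that make up this span each carried less. From 4.5 to 5.5DDC Sox3 differed by −0.34 (SE 0.48) on the log2 scale, with an edgeR adjusted p of 0.784, and the libraries overlapped. From 5.5 to 6.5DDC the difference was −1.46 (SE 0.49), with an adjusted p of 0.189 and no overlap of the libraries. The change in the second interval differed from that in the first by −1.12 (SE 0.81, adjusted p = 0.763), so the data do not tell the intervals apart.

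Sox2 gave no difference past the test in any comparison. Its FPKM values were 88.0, 78.2 and 80.1 at 4.5DDC, 89.1, 84.8 and 82.0 at 5.5DDC, and 84.9, 96.0 and 82.0 at 6.5DDC. The groups overlapped throughout, and the edgeR difference from 4.5 to 6.5DDC was 0.09 (SE 0.12, adjusted p = 0.653), with a 95% interval of the ratio from 0.877 to 1.28. With 2628 to 6805 reads per library, Sox2 was one of the most precisely measured members.

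Sox1, the SoxB1 gene tied most closely to the neural plate, measured 13.5, 10.4 and 10.2 at 4.5DDC, 11.7, 12.0 and 13.01 at 5.5DDC, and 11.8, 13.1 and 14.7 at 6.5DDC, all in FPKM. Its time points overlapped in every comparison. The edgeR difference from 4.5 to 6.5DDC was 0.20 (SE 0.14, adjusted p = 0.322), and the 95% interval of the ratio ran from 0.929 to 1.43.

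Sox2 made up most of the SoxB1 RNA. Over the 3 time points in order, the SoxB1 sum was 102 ± 5.34, 104 ± 1.23 and 103 ± 6.34 FPKM (SD, n = 3). Sox3 supplied 4.55%, 14.02% and 5.85% of that sum in the 4.5DDC replicates and 2.14%, 1.303% and 3.58% in the 6.5DDC replicates. Sox2 supplied 75.9% to 83.5% at 4.5DDC and 81.8% to 86.9% at 6.5DDC. The ratio of Sox1 to Sox3 was 1.78 ± 1.04 at 4.5DDC and 6.26 ± 2.56 at 6.5DDC, and in 1 library, replicate 2 of 4.5DDC, Sox3 exceeded Sox1. These shares carry no test of their own.

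**Figure D3:**
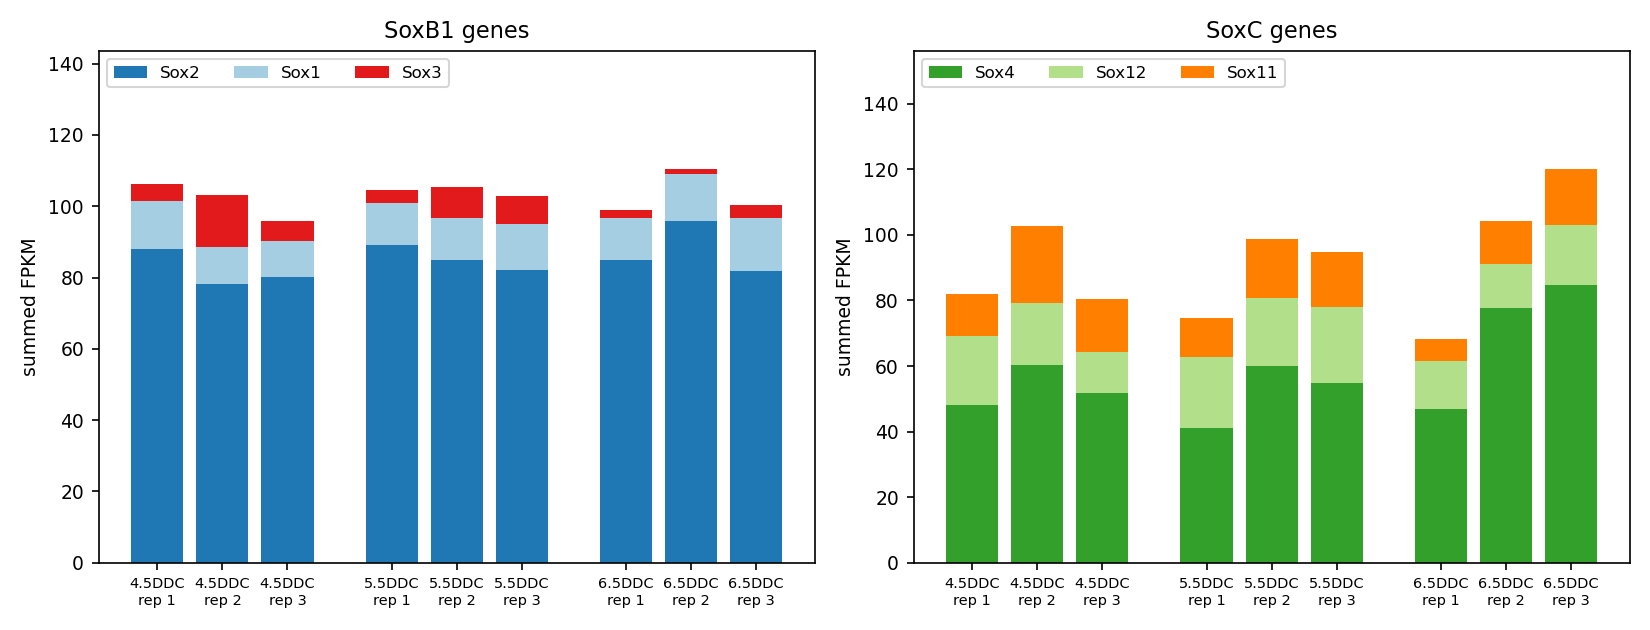
Summed FPKM of the SoxB1 genes (left) and of the SoxC genes (right) in each of the 9 libraries, as bars stacked by gene. The SoxB1 sum lies between 95.9 and 110 FPKM with a thin Sox3 share at 6.5DDC, and the SoxC sum ranges from 68.2 to 120 FPKM, both extremes at 6.5DDC.

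Among the SoxB2 genes, Sox14, which marks certain interneurons and other postmitotic neurons, was at the detection limit. Its count was 0 in 8 libraries and 2 reads (0.122 FPKM) in replicate 2 of 5.5DDC. A count of 0 allows up to 3 reads, or 0.118 to 0.271 CPM depending on the library, and covers counting error only. Sox14 did not pass the filter on low counts and was not tested.

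Sox21 measured 38.2, 27.5 and 23.96 FPKM at 4.5DDC, 39.2, 32.7 and 33.4 a day later, and 35.1, 30.4 and 28.7 at 6.5DDC. Replicate 1 was the highest of its time point each time, and the time points overlapped. The edgeR difference from 4.5 to 6.5DDC was 0.05 (SE 0.18, adjusted p = 0.867), with a ratio interval of 0.781 to 1.37. The ratio of Sox21 to Sox2, which sets a repressing SoxB factor against the leading activating one, was 0.362 ± 0.068 at 4.5DDC, 0.411 ± 0.028 at 5.5DDC and 0.360 ± 0.049 at 6.5DDC (SD, n = 3).

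The SoxC gene Sox4 measured 48.1, 60.2 and 51.8 FPKM at 4.5DDC, 41.0, 60.0 and 55.0 a day later, and 47.0, 77.7 and 84.7 at 6.5DDC. Both highest values came at 6.5DDC, while replicate 1 of 6.5DDC lay below every 4.5DDC library. The edgeR difference from 4.5 to 6.5DDC was 0.37 (SE 0.22, adjusted p = 0.249), and from 5.5 to 6.5DDC it was 0.45 (SE 0.22, adjusted p = 0.295). The ratio interval from 4.5 to 6.5DDC ran from 0.924 to 1.81. On the log2 scale, replicate 1 differed by 0.02 over that span and replicates 2 and 3 by 0.49 on average.

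Sox11, which is abundant in newborn neurons, measured 12.9, 23.3 and 16.0 FPKM at 4.5DDC, 11.8, 17.8 and 16.7 a day later, and 6.58, 12.95 and 17.0 at 6.5DDC. Replicate 1 was the lowest of each time point, and the groups overlapped. The edgeR difference from 4.5 to 6.5DDC was −0.50 (SE 0.33, adjusted p = 0.2997), with a ratio interval of 0.424 to 1.17. With a block that sets replicate 1 apart from replicates 2 and 3, the difference was −0.55 and was called (adjusted p = 0.0443), in a fit that called 29.7% of all genes. With a block for each replicate number the adjusted p was 0.0790, and over all 21 alternatives it ran from 0.0443 to 0.673. Within replicates 1, 2 and 3, Sox11 differed by −0.86, −0.77 and −0.003 on the log2 scale, so replicate 3 hardly differed.

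Sox12, the least studied SoxC gene, measured 20.96, 19.0 and 12.5 FPKM at 4.5DDC, 21.7, 20.9 and 23.1 a day later, and 14.6, 13.5 and 18.4 at 6.5DDC. All 5.5DDC libraries lay above all 6.5DDC libraries. The edgeR difference from 5.5 to 6.5DDC was −0.52 (SE 0.19) with an unadjusted p of 0.0194 and an adjusted p of 0.206, so it did not pass. From 4.5 to 6.5DDC the difference was −0.23 (SE 0.19, adjusted p = 0.412).

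The SoxC genes together came to 88.3 ± 12.4, 89.3 ± 12.99 and 97.5 ± 26.6 FPKM over the time points (SD, n = 3). Sox4 supplied 58.7% to 64.5% of it at 4.5DDC and 68.9% to 74.6% at 6.5DDC, while Sox11 supplied 15.7% to 22.8% and then 9.65% to 14.2%. Within each library the ratio of Sox11 to Sox4 was 0.268, 0.388 and 0.308 at 4.5DDC, 0.288, 0.297 and 0.304 at 5.5DDC, and 0.140, 0.167 and 0.201 at 6.5DDC. Every 6.5DDC library was below every earlier library in this ratio, which was computed on the levels alone and carries no test. The share of other gene pairs that separate in this way is not given here, so the separation is a description. The ratio of the SoxC sum to the SoxB1 sum was 0.868 ± 0.115, 0.857 ± 0.125 and 0.943 ± 0.255 over the time points. The size of these sums, shares and ratios depends on the gene models, as the place of the members does. The quotient of CPM and FPKM was 0.313 of the annotated length in kb for Sox11 and 1.27 of it for Sox4. With annotated lengths, the ratio of Sox11 to Sox4 would therefore be lower in every library.

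**Figure D4:**
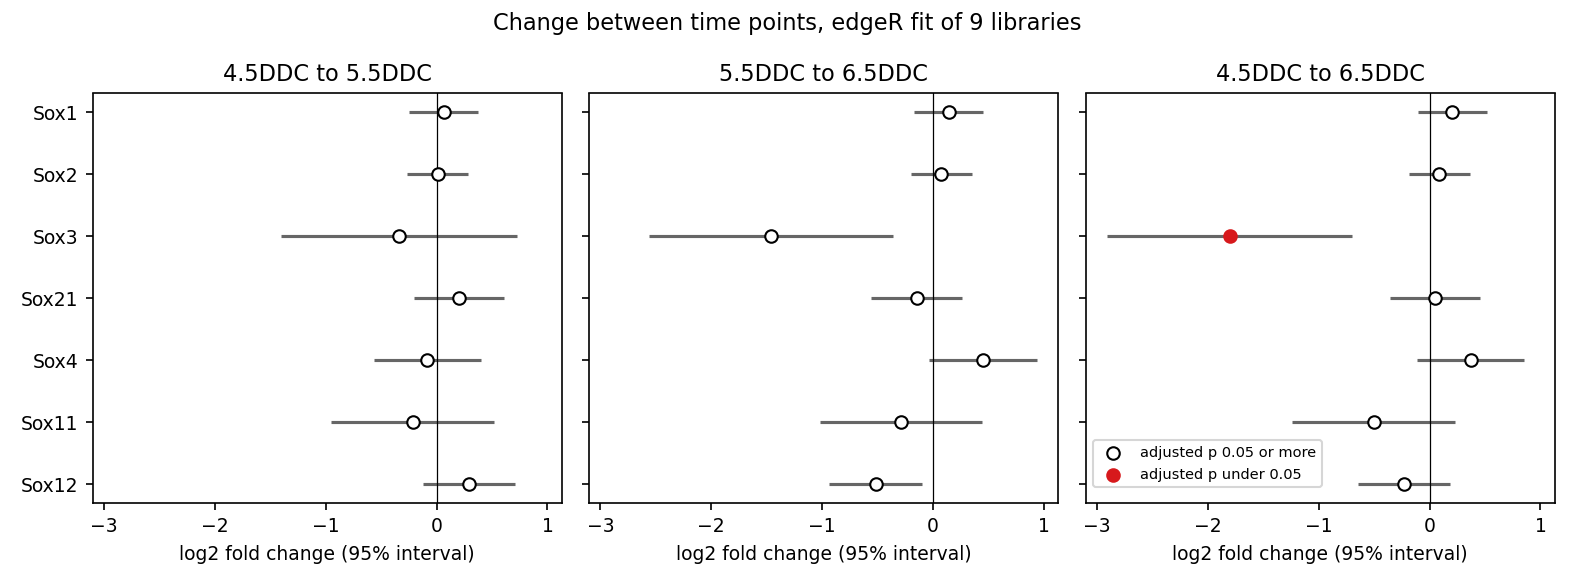
Change of the 7 tested genes between time points as log2 fold change (horizontal axes), with bars for the 95% interval of the edgeR fit, in a panel per comparison. Filled points have an adjusted p under 0.05, which holds for Sox3 from 4.5 to 6.5DDC (−1.80) and for no other point.

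Over the members as a group, 0 of 7 tested genes were called from 4.5 to 5.5DDC by edgeR, where 0.0746% of all genes tested were called (11 genes), and 0 of 7 from 5.5 to 6.5DDC, where 0.224% were called (33 genes). With a block for replicate number, 212 (1.44%) and 195 genes (1.32%) were called in these intervals and still 0 members. In the edgeR fit across all genes, 2 members had an unadjusted p under 0.05 in the second interval (Sox3, 0.0142, and Sox12, 0.0194) and 0 in the first, where 18.5% and 15.4% of all genes did. DESeq2 called 0 members in either, and 3.36% of all genes in the first and 4.49% in the second. In the test of any difference between the 3 time points edgeR called 0 of 7 members and 9.63% of all genes, with Sox3 at an unadjusted p of 0.0134 and an adjusted p of 0.0846. In this test Sox3 was the 1 member called by DESeq2, which called 20.2% of all genes, and the 1 called with the block for replicate 1, which called 22.3%. In the test of a difference between the intervals edgeR called 0 members and 0% of all genes, with Sox12 the 1 member under 0.05 before adjustment (0.0288), as were 4.76% of all genes, and DESeq2 called 0 genes. Libraries did not overlap in FPKM for 0 of 8 members from 4.5 to 5.5DDC (23.8% of all genes tested) and for 2 of 8 from 5.5 to 6.5DDC (24%). From 4.5 to 6.5DDC they did not overlap for 1 of 8 (34.5% of all genes tested). The 8 include Sox14, which was not among the genes tested. These shares of members without overlap were near or below those of all genes. The median log2 fold change from 4.5 to 6.5DDC was 0.09 for the SoxB1 genes and −0.23 for the SoxC genes, against 0.00 for all genes tested.

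The replicates also differed in a way that the time points do not explain. Replicate 1 had the lowest Sox4 and Sox11 and the highest Sox21 of its group at all 3 time points. Early neuron genes moved with this: their 11 measured members summed to 283 FPKM in replicate 1 of 4.5DDC against 767 and 518.05 FPKM in replicates 2 and 3, to 232 against 897 and 907 FPKM at 5.5DDC, and to 468 against 1026 and 1086 FPKM at 6.5DDC. POU partner factors, which bind beside SoxB1 proteins, summed to 39.2, 39.3 and 35.1 FPKM in replicate 1 and to at least 51.6 FPKM in every other library. Pou3f2, Pou3f3 and Pou3f4 were lowest in replicate 1 of each time point, whereas Pou2f1 was highest there at 5.5DDC (17.4 against 14.3 and 9.92 FPKM) and at 6.5DDC (15.3 against 13.9 and 11.4 FPKM). The part of neurons left in the sort in these differences was not tested.

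Of the 11 other Sox genes in the table, 7 were tested, of which 1 rose and 1 fell from 4.5 to 6.5DDC in edgeR. Sox6, a SoxD gene active in progenitors and glial cells, rose from 6.44 ± 1.02 to 13.7 ± 0.87 FPKM (SD, n = 3; log2 fold change 1.09, SE 0.16, adjusted p = 0.00273). Sox13, also of the SoxD group, fell from 24.2 ± 9.09 to 7.95 ± 2.51 FPKM (−1.76, SE 0.28, adjusted p = 0.00407). Both calls held under all 21 alternatives, unlike that of Sox3. Sox9, a SoxE gene of progenitors and glia, measured 4.499 and 12.0 FPKM in its 4.5 and 6.5DDC means, with an adjusted p of 0.0654 in the fit without a replicate block. Within replicates 1, 2 and 3, Sox9 differed by 0.90, 1.23 and 1.63 on the log2 scale. The remaining tested genes, Sox5, Sox7, Sox8 and Sox17, were not called. Sox10, the marker of neural crest and oligodendrocyte lineage, had at most 2 reads in any library.

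Among the POU partner factors, 4 of 6 genes were tested and 0 were called by edgeR from 4.5 to 6.5DDC, with a median log2 fold change of 0.09. Pou3f2 measured 14.9 and 16.2 FPKM in its 4.5 and 6.5DDC means, and Pou5f1, the partner of Sox2 in ESCs, had at most 2 reads in any library.

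Neural progenitor genes gave the setting for the SoxB values. Of 11 genes, 3 rose, 0 fell and 8 did not pass from 4.5 to 6.5DDC in edgeR, with a median log2 fold change of 0.14. By sign alone, 6 of the 11 were higher and 5 lower at 6.5DDC. Prom1, whose protein was the target of the sort, rose from 79.1 ± 14.3 to 183 ± 27.2 FPKM (log2 fold change 1.19, SE 0.18, adjusted p = 0.00363). Cdh2, the N-cadherin gene, rose from 117 ± 12.5 to 179 ± 30.3 FPKM (0.64, SE 0.17, adjusted p = 0.0325), a call lost without any 1 of 7 single libraries, with adjusted p up to 0.120 without replicate 2 of 4.5DDC. Nes, which encodes the progenitor filament nestin, measured 157 FPKM at 4.5DDC and 154 FPKM at 6.5DDC (−0.05, adjusted p = 0.845). Of the other genes that did not pass, Hes5, Pax6, Msi1 and Notch1 had lower values at 6.5DDC and are named here after their values were seen. Hes5, a Notch target, measured 5.69 and 1.14 FPKM in its 4.5 and 6.5DDC means (−2.10, adjusted p = 0.0522), but its 4.5DDC mean rested on replicate 2, with 12.9 FPKM against 2.55 and 1.65 FPKM, and it was lower in 2 of 3 replicates. Pax6, a TF of more dorsal progenitors, measured 5.24 and 1.21 FPKM (−1.85, adjusted p = 0.0575), with a difference of 0.44 within replicate 1 and of −2.71 and −2.03 within replicates 2 and 3. Msi1, an RNA-binding protein of progenitors, measured 146 and 121 FPKM (−0.56, adjusted p = 0.0740) and was lower in replicates 1 and 2 and not in replicate 3. Notch1, a Notch receptor, measured 27.2 and 23.0 FPKM (−0.63, adjusted p = 0.137), and replicate 3 at 6.5DDC lay above all 3 libraries of 4.5DDC. Fabp7, also named after its values were seen, did not pass and went the other way. It measured 362 and 768 FPKM (1.08, adjusted p = 0.126), with differences of 2.23, 1.12 and 0.44 within replicates 1, 2 and 3.

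Of the 7 proneural genes, 1 rose and 0 fell in edgeR, with a median log2 fold change of −0.90. Neurog3 rose from 0.645 ± 0.360 to 16.1 ± 15.8 FPKM (4.61, SE 1.24, adjusted p = 0.0305), but by 0.26 in replicate 1 against 4.15 on average in replicates 2 and 3, and leaving out any 1 of 5 single libraries ended the call, with adjusted p up to 0.0861 without replicate 3 of 4.5DDC. Of 11 early neuron genes tested, 1 rose and 0 fell in this fit without a replicate block, with a median of 0.26. By sign alone, 9 were higher and 2 lower. Map2, a microtubule protein of neurons, rose from 47.9 ± 2.87 to 153 ± 64.6 FPKM (1.65, SE 0.31, adjusted p = 0.00768). Dcx (1.43, adjusted p = 0.186) and Stmn2, named after their values were seen, did not pass but were higher in 3 of 3 replicates. Within replicates 1, 2 and 3, Dcx differed by 1.39, 1.36 and 1.51 and Stmn2 by 1.65, 0.94 and 1.38. Values with a replicate block are not given here for these 2 genes. Of 4 V2 interneuron genes tested, 2 rose, Gata3 (2.46, adjusted p = 0.0189) and Gata2 (1.83, adjusted p = 0.00634), both also used by serotonergic neurons. The adjusted p of Gata3 was 0.0557 when replicate 3 of 4.5DDC was left out and 0.0608 when replicate 2 of 6.5DDC was. The other tested genes of the list did not pass, with Lhx3 at −1.82 (adjusted p = 0.312) and Lhx4 at −1.33 (adjusted p = 0.102). Foxn4, Vsx1 and Tal1 of that list were not tested and were under 1 FPKM in every library.

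**Figure D5:**
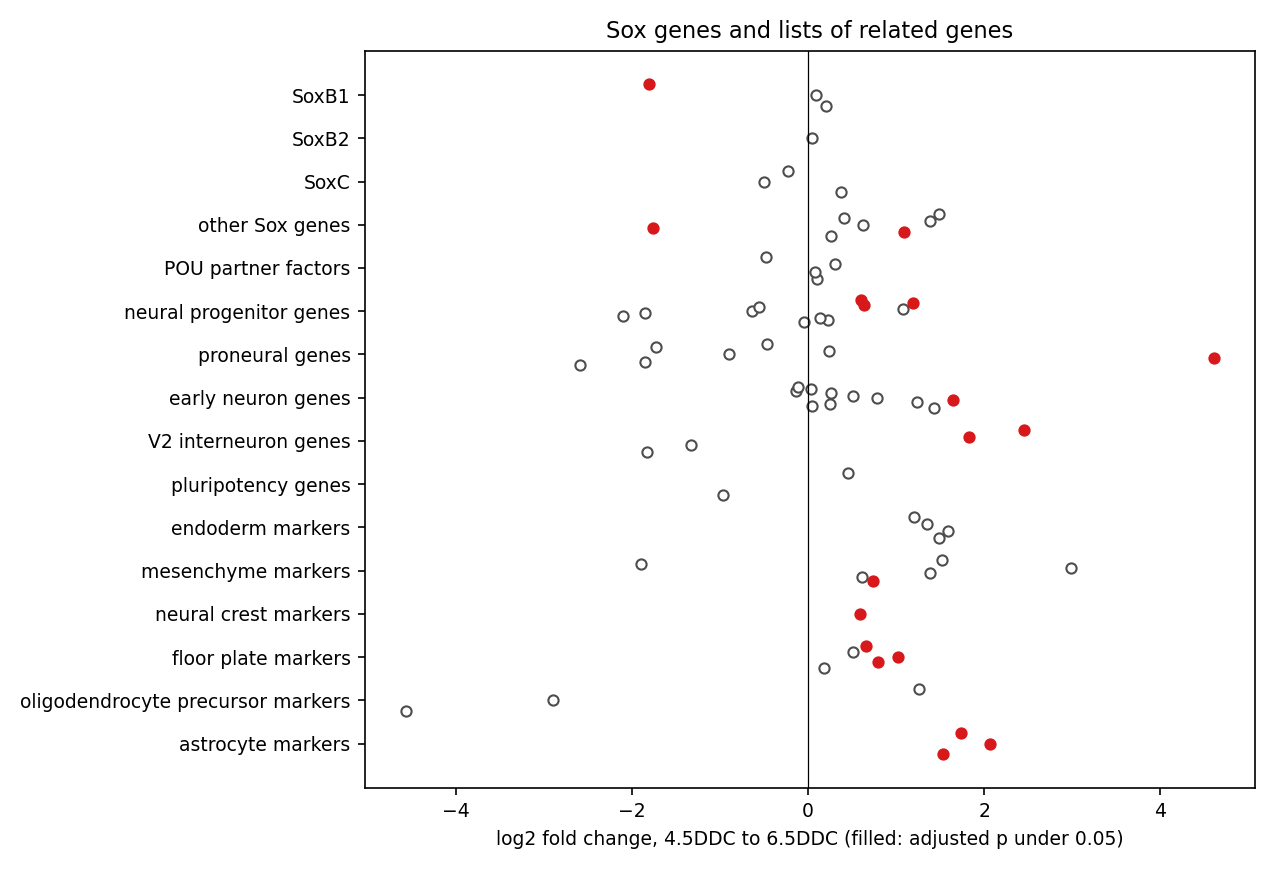
Log2 fold change from 4.5 to 6.5DDC (horizontal axis) of every tested gene of the Sox groups and of the other gene lists (rows). Each point is a gene, filled where the adjusted p is under 0.05. Sox3 is the filled point of the SoxB1 row at −1.80, and the SoxC row has none.

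Defining markers of other cells were checked because SoxC and SoxE genes are also used outside the neural tube. Pluripotency genes were under 1 FPKM in their mean for 8 of 9, among them Nanog, and 0 of 2 tested genes were called. Neural crest markers were low for 3 of 4, with Foxd3 at no more than 1 read, and Ednrb, which hindbrain progenitors also use, rose (0.59, adjusted p = 0.0261, and 0.102 without replicate 2 of 6.5DDC). Endoderm markers summed to between 1.04 and 15.0 FPKM, the highest in replicate 1 of 6.5DDC, with 0 of 4 called. Mesenchyme markers summed to 7.26 to 13.8 FPKM at 4.5DDC and to 14.1 to 48.6 FPKM at 6.5DDC, with Twist1 called (0.74, adjusted p = 0.0276, and 0.0792 without replicate 2 of 6.5DDC). Oligodendrocyte precursor markers summed to 1.996 to 12.9 FPKM at 4.5DDC and to 2.18 to 4.02 FPKM at 6.5DDC, with 0 of 3 called. Their median log2 fold change was −2.89, with 2 lower and 1 higher, so the sums join opposite movements. In their 4.5 and 6.5DDC means, Olig2 measured 5.00 and 0.673 FPKM, Olig1 0.875 and 0.0320, and Pdgfra 1.04 and 2.46.

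Floor plate and astrocyte lists each held 3 rises from 4.5 to 6.5DDC. Of 5 floor plate markers 3 rose, among them Shh (0.79, adjusted p = 0.0321, and 0.114 without replicate 2 of 6.5DDC). The list summed to 420 to 642 FPKM at 4.5DDC, 752 to 1051 FPKM at 5.5DDC and 761 to 850 FPKM at 6.5DDC. Its median log2 fold change was 0.75 in the first interval (5 higher) and −0.10 in the second (1 higher, 4 lower), with 0 called in either. Sox3 differed by −0.34 and −1.46 in these intervals. Of 3 astrocyte markers tested 3 rose, with Aldh1l1 at 2.06 (adjusted p = 0.00460) and Slc1a3 at 1.74 (adjusted p = 0.00102), and the list, which radial progenitors also express, summed to 15.2 to 25.2 FPKM and then 57.2 to 64.0 FPKM. Gfap had at most 7 reads in any library. The part of such cells in the Sox values was not tested.

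The genes whose course over the 9 libraries was most like that of a member were found by Pearson's r of log2(CPM + 1) among the 10149 genes that averaged 5 FPKM or more. For Sox3 they were Sept9 (r = 0.993), Mmab (0.973) and Aacs (0.973). For Sox4 they were Arl4a (0.989), Serpini1 (0.966) and Ank2 (0.963), and for Sox11 they included Dpysl5 (0.980) and Ajap1 (0.9747). Sox12 was nearest to Tbc1d22b (0.959), Sox21 to Tmem100 (0.941), Sox1 to Rpap2 (0.970) and Sox2 to Csnk1g1 (0.939). Among the members themselves r ran from −0.80 for Sox2 with Sox3 to 0.74 for Sox3 with Sox11. The 9 libraries share time points and replicate numbers, and the values are descriptions of these libraries.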

How the data were processed

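RNA of Prominin-1 sorted cells was measured in 9 libraries with 11066572 to 25506192 counts each. The authors mapped 50-base single-end reads of polyA-selected RNA to GRCm38 with TopHat (2.0.4), counted reads per gene with HTSeq (0.6.1) and estimated FPKM with Cufflinks (2.1.1). In the deposited table of counts 98 symbols, none of them a member, had values that were not whole. The deposited values were therefore given the unit of expected counts and rounded, although the named counter gives whole reads, and how these values arose is not given in the sources used here. The deposited log2 table is limma voom without normalization of the same counts, reproduced here to rounding error.

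Counts were tested with edgeR (4.0.16) quasi-likelihood, TMM scaling and its filter on low counts, over all 9 libraries. This left 14742 genes, and p-values were adjusted over all of them by Benjamini-Hochberg. A call is an adjusted p under 0.05. The design had been written for whole counts. Simulated data with known changes were used to test the scripts. Alternatives were other scalings, filters, DESeq2 (1.42.0), limma (3.58.1), log2(FPKM + 1) and log2(FPKM + 0.1), replicate blocks and leaving out each library. FPKM levels were compared by exact permutation. Ratios of counts to FPKM varied by 0.79% to 2.12% between libraries in the detected members.

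Named genes were all members, the 2 largest called rises and falls of each other list with at least 2 FPKM, Prom1, Nes, defining markers, and the 3 genes most like each member, with the exception of some that are not reported here. Members and lists were chosen with earlier results of these data known. Pairing by replicate number was checked on deviations from group means: same-numbered libraries correlated at 0.75, 0.37 and 0.47 from 4.5 to 5.5DDC and at 0.44, 0.41 and 0.18 from 5.5 to 6.5DDC, but at 0.38, −0.11 and −0.30 from 4.5 to 6.5DDC. Unlike numbers correlated as well in some pairs, at 0.42 for replicate 3 of 4.5DDC with replicate 2 of 5.5DDC and at 0.43 for replicate 3 of 5.5DDC with replicate 2 of 6.5DDC. Replicate 1 thus stood apart, and replicates 2 and 3 were not separated by number. The replicate block was fitted over all 9 libraries, so it also enters the values from 4.5 to 6.5DDC, where same-numbered libraries did not all exceed 0.1.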

Additional observations from a re-analysis of the deposited data

Results flagged for a closer look

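In 3 members the level moved one way in the first interval and the other way in the second in every replicate, on the log2 scale of scaled counts. Sox21 moved by 0.0358, 0.224 and 0.389 from 4.5 to 5.5DDC in replicates 1, 2 and 3, and by −0.124, −0.0738 and −0.250 from 5.5 to 6.5DDC. Its change of course was −0.35 (SE 0.31) in edgeR, with an adjusted p of 0.794.

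Sox4 went the opposite way, by −0.250, −0.0145 and −0.0165 and then by 0.271, 0.424 and 0.596. The difference between the intervals was 0.53 (SE 0.38, adjusted p = 0.761).

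Sox12 moved by 0.0378, 0.119 and 0.797 and then by −0.554, −0.646 and −0.368. The difference was −0.81 (SE 0.32), with an unadjusted p of 0.0288 and an adjusted p of 0.760, and it lay between −0.96 and −0.63 in the alternatives. None of the 3 passed the adjusted test, and the intervals share the 5.5DDC libraries, whose values enter them with opposite sign. The share of all tested genes that turned in this way in every replicate is not given here. The number of members that did so is therefore a description and not a result about the group.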

How the results depend on the processing

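The count of members called from 4.5 to 6.5DDC was 1 and became 0 under limma voom without normalization, limma on log2(FPKM + 1) and limma on log2(FPKM + 0.1), and 2 (Sox3 and Sox11) with a block for replicate 1 against 2 and 3. It ranged from 0 to 1 when single libraries were left out, the 0 arising without replicate 2 of 4.5DDC and without replicates 1 and 2 of 6.5DDC. For any difference between the 3 time points it was 0 and became 1 (Sox3) with DESeq2 and with the block for replicate 1. With the full replicate block the counts were 0, 0, 1, 0 and 0, and this paired fit changed no call of a member. The counts for both shorter intervals and for the difference between them were 0 under all alternatives run. The cause of these shifts was not tested.

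Uncalled differences changed sign only when single libraries were left out. The log2 fold changes from 4.5 to 5.5DDC then ranged from −0.0162 to 0.193 for Sox1, −0.0459 to 0.0498 for Sox2, −0.621 to 0.280 for Sox3, −0.196 to 0.0628 for Sox4 and −0.399 to 0.0190 for Sox11. From 5.5 to 6.5DDC the range was −0.00253 to 0.154 for Sox2. From 4.5 to 6.5DDC it was −0.0673 to 0.256 for Sox21 and −0.113 to 0.0576 for Nes.

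Over all genes tested, calls from 4.5 to 5.5DDC numbered 11 and ran from 1 to 495 over the alternatives (most with DESeq2), those from 5.5 to 6.5DDC 33 and from 0 to 662 (most with DESeq2), those from 4.5 to 6.5DDC 2763 and from 1125 (without replicate 2 of 6.5DDC) to 4382, those for any difference 1420 and from 323 to 3287, and those for the difference between intervals 0 and from 0 to 2. Sox3, with 60 to 402 reads per library, was the least deeply counted of the tested members.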
